A study of Arabidopsis thaliana with 12 samples.

Results

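Whole seedlings of the Arabidopsis thaliana line labelled CFH1 decoy were compared with whole seedlings of Col-0, the wild type, by mRNA sequencing. The comparison rests on 6 of the 12 libraries of the series, 3 from the decoy line and 3 from Col-0. Expression was tested for 21235 of the 27588 genes in the table, those with enough counts in at least 1 genotype. The other 6 libraries, 3 of a cfh1 mutant and 3 of a line whose genotype label is PIF3 over-expression and whose titles call it a mutant, entered the fit so that all genotypes shared 1 estimate of the spread. The labels give the ecotype Columbia 0 for every library, the genotype CFH1 decoy for the tested line and wildtype for Col-0. Seedlings of each line had 7 days of 12 h light and 12 h dark and then stood in continuous red light until harvest on day 12 at zeitgeber time 1. The promoter that drives the decoy, and whether the line is 1 transformant or several, are not stated by the labels. Nor do the labels say that the 3 libraries of a line came from separate plates or sowings, and p-values therefore rest on a spread between libraries that may be technical.

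F-box proteins are the part of an SCF ubiquitin ligase that binds the protein to be marked for breakdown. A decoy of such a protein commonly lacks the F-box itself, so it can still hold its targets without handing them to the ligase, but the labels do not say how the CFH1 decoy was built. The study asked how CFH1 connects the circadian clock with development in red light. In red light, phytochrome holds back PIF factors such as PIF3, and seedlings build chloroplasts, pigments and short stems. Each line was sampled at 1 time only, so for genes that cycle, a new level and a shifted phase cannot be told apart.

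Total counts were 21914394, 34345088 and 33122683 in decoy replicates 1, 2 and 3, against 33583770, 32504508 and 28581600 in Col-0 replicates 1, 2 and 3. The 10 most abundant genes took 7.65% to 8.99% of counts in the decoy libraries, against at most 6.16% in Col-0. On the first principal component of the 500 most variable genes, which held 78.3% of their variance, the 3 decoy libraries lay apart from the 9 others. Levels below are CPM, counts scaled per 1e+06 of the TMM-adjusted library total, and the values of a line are given in the order of replicates 1, 2 and 3. The TMM factors were 0.793, 0.939 and 0.871 in the decoy libraries, against 1.04, 1.05 and 1.02 in Col-0. At the same count and library total, a lower factor gives a higher CPM. Fold changes are log2 values of decoy over Col-0 from edgeR's quasi-likelihood test, with p-values adjusted over all genes tested and a threshold of 0.05. In whole seedlings, fewer cells of a type and less RNA per cell cannot be told apart.

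The F-box gene AT2G32560 on chromosome 2, which carries no symbol in the reference, stood at 383, 294 and 353 CPM in the decoy libraries, against 45.7, 42.8 and 34.5 CPM in Col-0 (log2 fold change 3.06, SE 0.176, adjusted p 7.02e-08). The libraries did not overlap, and the means of 343 ± 45.1 CPM in the decoy and 41.0 ± 5.83 CPM in Col-0 (SD, n = 3 each) were 8.37-fold apart. No source used here says which locus CFH1 is, so whether this gene's level checks the decoy transcript is unknown. In the cfh1 mutant the gene stood at 15.4, 16.5 and 17.8 CPM, below every Col-0 library (log2 fold change of mutant over Col-0 -1.31, adjusted p 0.00652). It was not the only F-box gene with a rise of this size. Of 652 F-box genes listed, 186 were tested, and 38 were higher and 31 lower, or 20.4% and 16.7%, beside 19.6% higher and 21.2% lower over all genes tested, with a median log2 fold change of 0.09. AT2G32560 ranked 6 from the top among them by fold change and 2 by gain in CPM. AT1G27540, an F-box gene of the DUF295 group, stood at 412, 261 and 334 CPM in the decoy libraries, against 27.4, 27.4 and 30.3 CPM in Col-0 (log2 fold change 3.57, SE 0.158, adjusted p 8.39e-09). AT1G27580, of the same group, stood at 167, 159.8 and 134 CPM in the decoy libraries, against 0.517, 0.352 and 0 CPM in Col-0 (log2 fold change 8.97, SE 0.472, adjusted p 3.32e-08). At the other end, AT5G42460 had no count in any decoy library against 526 counts over the Col-0 libraries, which puts it at least 140-fold lower. Scaled by library totals alone, 24 F-box genes were higher and 46 lower. These single F-box genes were chosen for their place in the ranking after their values were seen.

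PIF3 itself stood at 43.3, 32.2 and 28.9 CPM in the decoy libraries, against 22.8, 26.6 and 36.9 CPM in Col-0. The libraries overlapped, and the difference did not pass the test (log2 fold change 0.27, SE 0.21, adjusted p 0.315).

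Of the 21235 genes tested, 4163 were higher and 4504 lower in decoy seedlings against Col-0, which is 19.6% and 21.2%, and 40.8% in either direction. With a log2 fold change of at least 1 as well, 820 (3.86%) were higher and 2174 (10.2%) lower. Scaling changed this split: with library totals in place of TMM factors, 1720 were higher and 6929 lower, and the median log2 fold change over all genes stood at -0.25. Every list below is read against these shares. For 11004 genes (51.8%) the decoy libraries did not overlap the Col-0 libraries, and for 6029 (28.4%) they lay on 1 side of all 9 other libraries. Against the cfh1 mutant 33.2% of genes were called, and against PIF3 over-expression 43.3%, comparisons that share the same decoy libraries.

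Among the largest rises by fold, THI2.2, a thionin gene, stood at 159, 128 and 199 CPM in the decoy libraries, against 14.5, 14.8 and 12.3 CPM in Col-0 (log2 fold change 3.55, SE 0.237, adjusted p 2.82e-07). AIR1, first described as an auxin-induced gene of root cultures, stood at 409, 165 and 636 CPM in the decoy libraries, against 32.0, 31.3 and 22.4 CPM in Col-0 (log2 fold change 3.82, SE 0.553, adjusted p 0.00022). The decoy libraries differed among themselves for AIR1, with replicate 2 the lowest. Each lay above every Col-0 library, but genes were ranked by fold only where the lines did not overlap. The pathogenesis-related glucanase gene BGL2, also called PR2, stood at 16.8, 26.5 and 23.6 CPM in the decoy libraries, against 1.44, 0.939 and 1.37 CPM in Col-0 (log2 fold change 4.16, SE 0.382, adjusted p 5.35e-06). PCR1, a plasma membrane protein gene of cadmium resistance, stood at 30.8, 25.9 and 54.0 CPM in the decoy libraries, against 0.631, 0.733 and 1.34 CPM in Col-0 (log2 fold change 5.37, SE 0.733, adjusted p 0.000145). The proline-rich cell wall protein gene PRP4 had one of the largest gains in CPM. It stood at 7202, 2716 and 4541 CPM in the decoy libraries, against 1152, 1025 and 1476 CPM in Col-0 (log2 fold change 1.98, SE 0.312, adjusted p 0.000401), with decoy replicate 1 the highest library.

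Among the largest losses in CPM, ECS1, a gene of a cell-wall-associated protein, stood at 45.8, 62.7 and 73.4 CPM in the decoy libraries, against 939, 799.6 and 714 CPM in Col-0 (log2 fold change -3.75, SE 0.261, adjusted p 4.1e-07). DR4, a Kunitz-type protease inhibitor gene that drought represses, stood at 64.8, 45.6 and 49.0 CPM in the decoy libraries, against 571, 606 and 558 CPM in Col-0 (log2 fold change -3.45, SE 0.167, adjusted p 1.56e-08). DOX1, which encodes a fatty acid dioxygenase of pathogen responses, stood at 138, 81.7 and 122 CPM in the decoy libraries, against 581, 488 and 607 CPM in Col-0 (log2 fold change -2.30, SE 0.223, adjusted p 8.13e-06). Each of these genes fell in the decoy with no overlap between lines. TPS-CIN, a gene of cineole synthesis in roots, stood at 18.9, 66.5 and 36.1 CPM in the decoy libraries, against 303, 303 and 225 CPM in Col-0 (log2 fold change -2.77, SE 0.358, adjusted p 9.51e-05). HSD2, a hydroxysteroid dehydrogenase gene, had 8 counts over the 3 decoy libraries and 13349 over the 3 Col-0 libraries. EXT12, for an extensin of the cell wall, had 8 decoy counts against 3534 from Col-0.

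**Figure D1:**
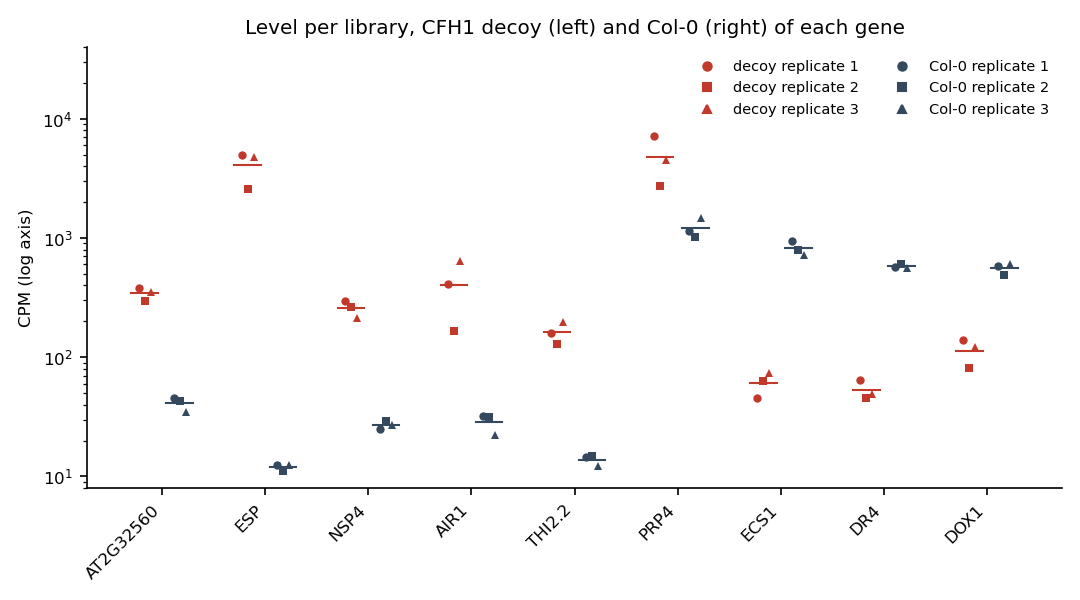
Level of 9 genes in each library (CPM, log axis), decoy in red on the left and Col-0 in dark blue on the right of each gene, with 1 mark per replicate and a line at the mean of 3. AT2G32560, ESP, NSP4, AIR1, THI2.2 and PRP4 lie higher and ECS1, DR4 and DOX1 lower in every decoy library than in any Col-0 library.

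Some genes had transcript in 1 line and next to none in the other. In 95 genes the 3 decoy libraries together held at most 3 counts where Col-0 held at least 100. None of the 95 was at or under 3 counts in the cfh1 mutant or in PIF3 over-expression. The reverse was seen for 37 genes, of which 30 were also at or under 3 counts in the cfh1 mutant and 29 in PIF3 over-expression. Of the 37, 32 passed the filter, while the other 5 were not tested and had their highest count in decoy replicate 3. All 32 were called higher, but the same counts had chosen them, so these calls add no support. By the same limits against Col-0, the cfh1 mutant had 0 genes of the first kind and 1 of the second, and PIF3 over-expression 0 and 2. Of the 95 genes 93 were nuclear, with 29, 13, 19, 14 and 18 on chromosomes 1 to 5, and 23 of them neighboured another of the set. Over all genes tested, these chromosomes held 5585, 3195, 4163, 3227 and 4942. How often genes of other sets neighbour each other was not tested. The reference gives 8 of the 95 (8.42%) a disease resistance product, beside 0.825% of all 19404 genes with at least 100 counts in Col-0. An F-box product is given for 4 (4.21%), beside 0.799%, and an uncharacterized one for 21 (22.1%), beside 5.51%.

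AT2G25510, an uncharacterized protein gene, had 0 counts over the decoy libraries against 39351 over those of Col-0, which is at least 10409-fold lower. AT1G66100, a plant thionin gene, had 0 decoy counts against 10438 from Col-0, which is at least 2768-fold lower. AT2G27402, annotated as a plastid transcriptionally active protein, had 2 decoy counts against 21436 from Col-0, and the ratio was 0.000117 (95% interval 1.4e-05 to 0.000421). In the other direction, AT4G19240, an uncharacterized protein gene, had 5223 decoy counts against 0 from Col-0, which is at least 2176-fold higher. AT5G47260, a putative disease resistance gene, had 1554 decoy counts against 0 from Col-0, which is at least 647-fold higher. These bounds take 3 counts over the 3 libraries as the floor and cover counting error only, and these genes were chosen for their counts after they were seen.

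Several of the genes at the extremes are known to differ between natural accessions of Arabidopsis, and 13 such genes were listed, of which 11 were tested. Of these, 4 were higher and 4 lower, or 36.4% each, beside 19.6% and 21.2% of all genes. The list was chosen with earlier results of these data known, so these shares add no support. ESP, the epithiospecifier protein that turns glucosinolate breakdown towards nitriles and is little expressed in Col-0, stood at 4933, 2583 and 4771 CPM in the decoy libraries, against 12.4, 11.1 and 12.4 CPM in Col-0 (log2 fold change 8.42, SE 0.329, adjusted p 3.15e-09). The HISN6 genes are a duplicated step of histidine synthesis, and the HISN6B copy is known to be silent in Col-0. HISN6B stood at 8.69, 12.2 and 8.84 CPM in the decoy libraries and had 0 counts in every Col-0 library, at least 324-fold higher. Its duplicate HISN6A stood at 59.5, 53.6 and 44.3 CPM in the decoy libraries, against 30.9, 33.4 and 31.8 CPM in Col-0 (log2 fold change 0.71, SE 0.109, adjusted p 0.000346). QQS, an orphan gene that affects starch, had 4 decoy counts against 582 from Col-0. The flowering repressor FLC stood at 5.64, 4.03 and 3.02 CPM in the decoy libraries, against 4.94, 5.69 and 5.84 CPM in Col-0 and its activator FRI at 11.3, 12.8 and 10.4 CPM in the decoy libraries, against 10.2, 9.24 and 9.65 CPM in Col-0, and neither passed the test (-0.39 and 0.25 on the log2 scale). An effect of the decoy, of its insertion and of a genetic background other than Col-0 cannot be told apart in any value given here, whatever the ecotype label.

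Genes for the photosystems and the electron transport chain rose together in the decoy. Of 38 nuclear genes tested, 29 were higher and 0 lower, with a median log2 fold change of 0.58, beside 19.6% of all genes higher and a median of -0.0009 over all genes. Their summed level was 63014, 50521 and 55789 CPM in the decoy libraries, against 36467, 34720.0 and 35886 CPM in Col-0. PSAG, a small photosystem I subunit, stood at 4276, 2705 and 3401 CPM in the decoy libraries, against 1586, 1535 and 1669 CPM in Col-0 (log2 fold change 1.12, SE 0.192, adjusted p 0.000752). PSAF, which docks plastocyanin at photosystem I, stood at 3205, 2376 and 2613 CPM in the decoy libraries, against 1445, 1321 and 1402 CPM in Col-0 (log2 fold change 0.98, SE 0.205, adjusted p 0.00269). The leaf ferredoxin FD2, which takes electrons from photosystem I, stood at 2961, 2738 and 2627 CPM in the decoy libraries, against 1412, 1259.5 and 1141 CPM in Col-0 (log2 fold change 1.13, SE 0.203, adjusted p 0.001). For all 3 genes decoy replicate 1 was the highest library and no decoy library reached down to Col-0.

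Subunits of photosystem II and of the ATP synthase rose too. PSBO1, the main extrinsic subunit of the oxygen-evolving complex, stood at 4840.1, 3489.6 and 3607 CPM in the decoy libraries, against 2444, 2339 and 2579.5 CPM in Col-0 (log2 fold change 0.70, SE 0.183, adjusted p 0.00947), and PSBX, a small membrane subunit, rose by 0.77 on the log2 scale. PSAL and PSAH-1, where light-harvesting complexes dock on photosystem I, rose by log2 fold changes of 0.80 and 0.95, and the ATP synthase subunit gene PDE334 by 0.70. The genes not called, with their log2 fold changes, were PSAK (0.06), PSAN (0.47), ATPD (0.39), the ferredoxin gene FD1 (0.54), the ferredoxin reductases FNR1 (0.42) and FNR2 (0.20), PGR5 (0.10) and PGRL1A (0.05), which act in cyclic electron flow, and the kinase STN7 (-0.08). The count of 29 was 15 without decoy replicate 1, 19 without Col-0 replicate 1 and 17 without Col-0 replicate 2. With library totals alone it was 14, with 1 gene lower.

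Calvin cycle and photorespiration genes followed the same direction, with 19 of 26 higher, 0 lower and a median of 0.59. The higher share of 73.1% stands beside 19.6% of all genes. FBA2, a plastid aldolase, stood at 4106, 2491 and 3041 CPM in the decoy libraries, against 1550.4, 1515 and 1586 CPM in Col-0 (log2 fold change 1.05, SE 0.239, adjusted p 0.00432). The catalase CAT2, which clears the peroxide of photorespiration, stood at 1468, 1134 and 1296 CPM in the decoy libraries, against 772, 635 and 644 CPM in Col-0 (log2 fold change 0.93, SE 0.253, adjusted p 0.0117), and the peroxisomal transaminase AGT rose by a log2 fold change of 0.76. RCA, which activates Rubisco, stood at 13401, 8267 and 10179 CPM in the decoy libraries, against 6141, 5852 and 6160.4 CPM in Col-0 (log2 fold change 0.81, SE 0.281, adjusted p 0.0349). RCA was not called without decoy replicate 1 (log2 fold change 0.60) or 3 (0.83) or without Col-0 replicate 1 (0.82), 2 (0.79) or 3 (0.82). The list's count of 19 rested on single libraries as well: it was 4 without decoy replicate 1, 10 without decoy replicate 3, and 5, 7 and 5 without Col-0 replicates 1, 2 and 3. Scaled by library totals alone, 4 rose and 1 fell. CP12-2, a small regulator of the cycle, had a log2 fold change of -0.35 and sedoheptulose bisphosphatase SBPASE one of 0.28, neither called.

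Plastid-encoded genes did not share this direction. Of 76 tested, 14 were higher and 21 lower, or 18.4% and 27.6%, beside 19.6% and 21.2% of all genes. Their median was -0.06, and their share of all counts was 0.887% to 1.41% in the decoy, against 1.09% to 1.62% in Col-0. Log2 fold changes over the plastid-encoded list ran from -3.81 to 10.8, and the gene at the upper end is not among those given. The locus codes carry no names in the reference, so only codes are given, chosen after their values were seen. ATCG00800 stood at 16.5, 20.0 and 33.8 CPM in the decoy libraries, against 430.0, 383 and 174 CPM in Col-0 (log2 fold change -3.81, SE 0.397, adjusted p 1.61e-05), and ATCG00790 at 16.6, 24.4 and 32.9 CPM in the decoy libraries, against 364, 319 and 214 CPM in Col-0 (log2 fold change -3.60, SE 0.339, adjusted p 6.51e-06). ATCG00380 stood at 15.2, 39.6 and 21.4 CPM in the decoy libraries, against 3.76, 3.90 and 2.54 CPM in Col-0 (log2 fold change 2.90, SE 0.351, adjusted p 5.54e-05). The count of higher genes was 7 without decoy replicate 1, 22 without decoy replicate 3, and 8 and 7 without Col-0 replicates 1 and 2. How an mRNA library captures plastid transcripts was not tested.

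Of 12 regulators of plastid development, 3 were higher and 1 lower, or 25% and 8.33%, beside 19.6% and 21.2% of all genes. GLK1, a factor that drives nuclear photosynthesis genes, stood at 167, 119 and 132 CPM in the decoy libraries, against 86.5, 82.6 and 93.5 CPM in Col-0 (log2 fold change 0.67, SE 0.135, adjusted p 0.00209), while its relative GLK2 stood at 165, 107 and 119 CPM in the decoy libraries, against 118, 115 and 139 CPM in Col-0 and was not called (0.07). The sigma factors SIG1 to SIG6, which direct the plastid polymerase, ranged from -0.51 to -0.11 in log2 fold change and none was called. GUN4, of chlorophyll synthesis, and GUN1, of plastid signalling, were higher by log2 fold changes of 0.59 and 0.38, and the GATA factor CGA1 was lower at -0.50. GUN4 was not called without decoy replicate 1 (0.37). GUN1 was not called without decoy replicate 1 (0.29) or 3 (0.36) or without Col-0 replicate 1 (0.37), 2 (0.37) or 3 (0.39), and CGA1 not without decoy replicate 3 (-0.38) or Col-0 replicate 1 (-0.52) or 2 (-0.40). With library totals alone, 1 regulator was higher and 7 lower.

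Carotenoid and isoprenoid genes had 5 of 22 higher (22.7%), near the 19.6% of all genes. None was lower, beside 21.2% of all genes, and the median was 0.13. DXS, the entry enzyme of the plastid isoprenoid pathway, stood at 698, 524 and 622 CPM in the decoy libraries, against 369, 356 and 419.7 CPM in Col-0 (log2 fold change 0.69, SE 0.147, adjusted p 0.00296), and NCED4, a carotenoid cleavage gene, rose by 0.81 on the log2 scale. With library totals alone, 4 carotenoid genes were called lower. PSY, phytoene synthase, stood at 285, 327 and 318 CPM in the decoy libraries, against 365, 345 and 356 CPM in Col-0 and was not called (-0.20). Starch genes had 10 of 29 higher and 1 lower, or 34.5% and 3.45%, beside 19.6% and 21.2% of all genes (median 0.27). The triose phosphate translocator TPT, which exports fixed carbon from the chloroplast, stood at 1572, 1140.4 and 1216 CPM in the decoy libraries, against 824, 747 and 852 CPM in Col-0 (log2 fold change 0.70, SE 0.171, adjusted p 0.00665), and the maltose exporter MEX1 rose by 0.63 on the log2 scale. The lower gene, the ADP-glucose pyrophosphorylase subunit APL3, had a log2 fold change of -1.24 and was not called without decoy replicate 1 (-1.04) or Col-0 replicate 3 (-0.82). Of the starch genes 6 and 5 were higher without Col-0 replicates 1 and 2, while 2 and 3 were lower without decoy replicates 2 and 3. Scaled by library totals alone, 2 rose and 6 fell.

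In contrast to the photosynthesis genes, genes that make anthocyanin fell. Of 31 phenylpropanoid, flavonoid and anthocyanin genes tested, 16 were lower and 2 higher, with a median of -0.91. That is 51.6% and 6.45%, beside 21.2% and 19.6% of all genes. The largest falls among enzyme genes were at the late steps. LDOX, which makes the coloured anthocyanidin, stood at 1.15, 1.43 and 1.66 CPM in the decoy libraries, against 13.5, 19.3 and 24.5 CPM in Col-0 (log2 fold change -3.72, SE 0.601, adjusted p 0.000481). DFR, the step before it, stood at 0.805, 3.53 and 1.53 CPM in the decoy libraries, against 12.8, 21.6 and 33.6 CPM in Col-0 (log2 fold change -3.44, SE 0.746, adjusted p 0.00325). TT8, the bHLH partner of the MYB activators, stood at 0.115, 0.186 and 0.312 CPM in the decoy libraries, against 1.41, 2.70 and 1.58 CPM in Col-0 (log2 fold change -3.12, SE 0.625, adjusted p 0.00197). Each decoy library lay below each Col-0 library for these genes, though DFR and LDOX also spread widely within Col-0, where replicate 3 was the highest.

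Early steps of the pathway had smaller fold changes, some of them called. CHS, the first committed step, stood at 84.2, 43.4 and 90.1 CPM in the decoy libraries, against 114, 114 and 128 CPM in Col-0 and was not called (log2 fold change -0.71, SE 0.513, adjusted p 0.283), and neither was CHI, the next step (log2 fold change 0.18). PAL1, PAL2 and C4H, which feed all phenylpropanoids, had log2 fold changes of -0.44, -0.39 and -0.35, none called. CHIL, a helper of chalcone synthesis, stood at 27.2, 23.3 and 28.5 CPM in the decoy libraries, against 67.8, 79.7 and 65.2 CPM in Col-0 (log2 fold change -1.43, SE 0.176, adjusted p 6.36e-05). The MYB activator PAP1 had 9 counts over the decoy libraries and 344 over Col-0 (log2 fold change -4.96, SE 0.819, adjusted p 0.000557). MYBL2, a repressor of the same genes, moved the other way, at 31.6, 28.3 and 25.9 CPM in the decoy libraries, against 6.43, 7.19 and 14.2 CPM in Col-0 (log2 fold change 1.63, SE 0.249, adjusted p 0.000329). MYB4, a repressor of phenylpropanoid synthesis, stood at 11.9, 18.4 and 18.1 CPM in the decoy libraries, against 52.0, 44.8 and 37.6 CPM in Col-0 (log2 fold change -1.47, SE 0.182, adjusted p 6.75e-05). The other higher gene, TTG1, had a log2 fold change of 0.50 and was not called without decoy replicate 1 (0.30) or Col-0 replicate 1 (0.51) or 2 (0.44).

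**Figure D2:**
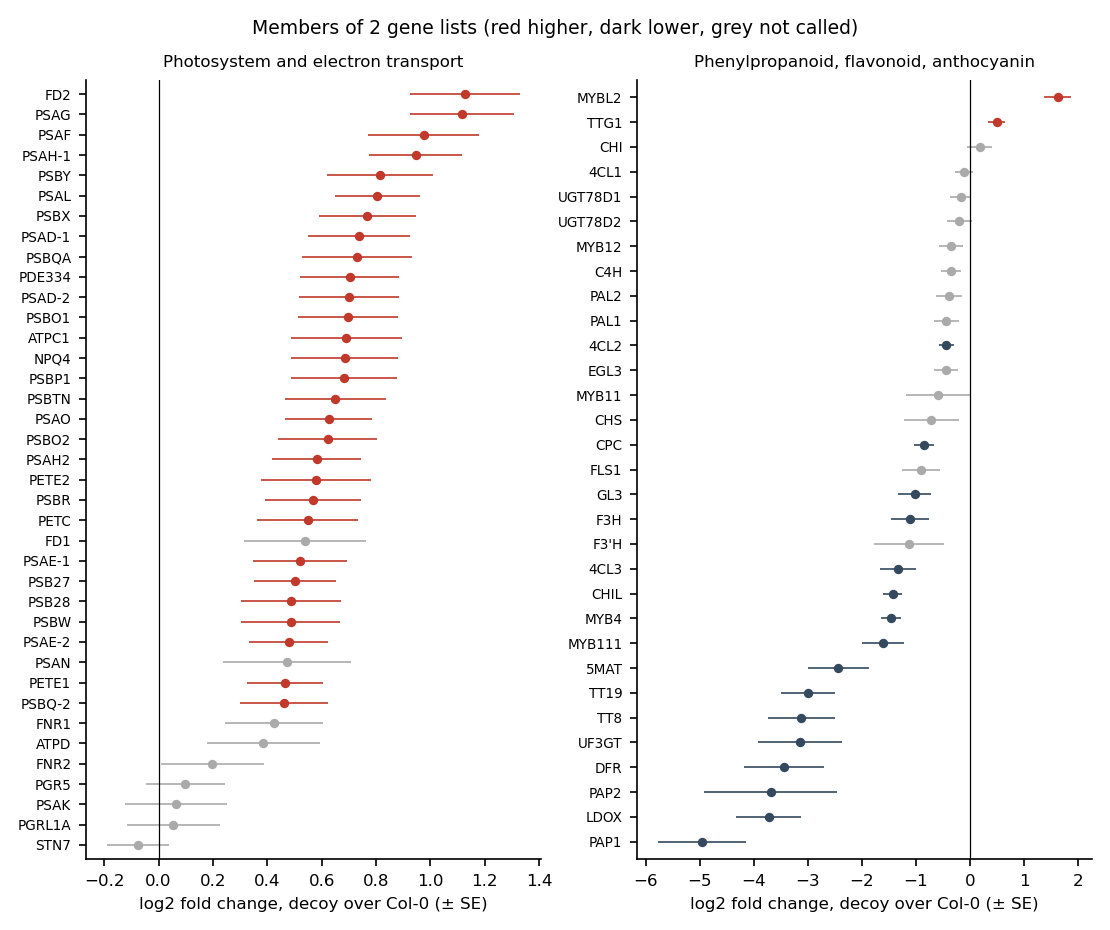
Log2 fold change of decoy over Col-0 with SE for each tested member of the photosystem and electron transport list (left) and the phenylpropanoid, flavonoid and anthocyanin list (right), sorted by value; red members are called higher, dark ones lower and grey ones not called. On the left 29 of 38 members are higher, and on the right 16 of 31 are lower with PAP1 at the bottom; the horizontal scales differ.

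Promoters of members from both of these lists are shown because genes that moved in opposite directions hold the same G-box, CACGTG, the letters that PIF and HY5 factors are known to bind. Each run is the 300 bases before the gene start in the RefSeq TAIR10.1 annotation, written 5′ to 3′ on the gene's own strand with each G-box in capitals, and the 4 genes were chosen after their values were seen. PSBQA (chr4:11334052-11334351, plus strand) and PSBTN (chr3:7377227-7377526, minus strand) encode photosystem II subunits, and both were higher in the decoy. DFR (chr5:17166033-17166332, minus strand) and CHIL (chr5:1562986-1563285, plus strand) were both lower.
PSBQA: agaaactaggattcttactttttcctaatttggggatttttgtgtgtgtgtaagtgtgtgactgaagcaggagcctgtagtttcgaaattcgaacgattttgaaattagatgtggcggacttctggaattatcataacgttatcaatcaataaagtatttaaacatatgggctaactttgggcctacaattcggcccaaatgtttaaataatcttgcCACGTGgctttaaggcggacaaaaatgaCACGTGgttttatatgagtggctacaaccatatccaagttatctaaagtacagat
PSBTN: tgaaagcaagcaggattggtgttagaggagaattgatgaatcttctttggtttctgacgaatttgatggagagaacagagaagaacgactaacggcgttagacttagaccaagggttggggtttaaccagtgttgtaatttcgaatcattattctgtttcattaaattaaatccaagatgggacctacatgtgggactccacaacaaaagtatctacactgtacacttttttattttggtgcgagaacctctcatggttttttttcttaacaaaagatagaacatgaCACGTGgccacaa
DFR: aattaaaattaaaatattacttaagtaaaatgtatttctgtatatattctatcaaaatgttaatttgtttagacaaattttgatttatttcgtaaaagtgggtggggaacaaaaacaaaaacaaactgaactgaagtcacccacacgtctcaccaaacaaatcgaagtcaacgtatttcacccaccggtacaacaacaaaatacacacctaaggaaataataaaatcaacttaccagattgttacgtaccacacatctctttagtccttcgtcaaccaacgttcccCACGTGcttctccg
CHIL: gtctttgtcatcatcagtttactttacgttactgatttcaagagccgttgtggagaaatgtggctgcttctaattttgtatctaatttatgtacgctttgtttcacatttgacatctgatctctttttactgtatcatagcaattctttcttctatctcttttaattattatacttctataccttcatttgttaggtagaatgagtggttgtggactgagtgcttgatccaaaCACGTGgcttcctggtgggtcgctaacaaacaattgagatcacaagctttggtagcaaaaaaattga

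PSBQA stood at 1148, 899 and 1022 CPM in the decoy libraries, against 645, 580.4 and 623 CPM in Col-0 (log2 fold change 0.73, SE 0.202, adjusted p 0.0124), and PSBTN at 906, 905 and 779 CPM in the decoy libraries, against 567, 538 and 545 CPM in Col-0 (log2 fold change 0.65, with 0.62 and not called without Col-0 replicate 2). The G-box reads the same on either strand and does not overlap the evening element AAAATATCT, the other motif searched, on both strands. In windows of this length, the G-box was present in 7.99% of 21108 tested genes with a window, in 6.86% of those higher and 8.38% of those lower in the decoy. It was present in 8 of 38 photosystem genes (21.1%), of which 7 were higher and 0 lower, and in 7 of 31 flavonoid genes (22.6%), of which 0 were higher and 5 lower. Among genes without it, 22 of 30 photosystem genes were higher, and 11 of 24 flavonoid genes were lower and 2 higher. The evening element was present in 2.86% of all windows. A match of letters is a description and not a binding site.

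Clock genes moved in both directions, with 6 of 29 higher and 8 lower, shares near those of all genes. The morning factor CCA1 stood at 48.6, 85.7 and 95.7 CPM in the decoy libraries, against 148, 168 and 147 CPM in Col-0 (log2 fold change -1.01, SE 0.209, adjusted p 0.00248), and its partner LHY at 127, 173 and 193 CPM in the decoy libraries, against 272, 293 and 266 CPM in Col-0 (log2 fold change -0.75, SE 0.179, adjusted p 0.00544). ELF4, a subunit of the evening complex that represses clock genes at night, stood at 13.6, 14.7 and 17.7 CPM in the decoy libraries, against 31.3, 30.0 and 29.1 CPM in Col-0 (log2 fold change -0.97, SE 0.116, adjusted p 4.89e-05). These genes fell, with decoy replicate 1 the lowest library for each. GI, an evening-phased scaffold protein, stood at 67.1, 47.9 and 52.7 CPM in the decoy libraries, against 29.9, 28.0 and 27.7 CPM in Col-0 (log2 fold change 0.97, SE 0.168, adjusted p 0.000796), and the F-box photoreceptor ZTL, which GI stabilises, at 72.7, 53.0 and 55.5 CPM in the decoy libraries, against 36.3, 35.3 and 42.8 CPM in Col-0 (log2 fold change 0.66, SE 0.126, adjusted p 0.00141). TOC1, an evening repressor and a target of ZTL, stood at 85.7, 70.6 and 60.6 CPM in the decoy libraries, against 68.9, 62.8 and 65.9 CPM in Col-0 and was not called (0.13). The pseudo-response regulators PRR9, PRR7 and PRR5 had log2 fold changes of -0.57, 0.38 and 0.53, none called, and PRR7 ran from 25.0 CPM in decoy replicate 1 to 79.8 CPM in decoy replicate 2.

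The REVEILLE genes RVE1, RVE2 and RVE8, relatives of CCA1, fell by 0.79, 0.93 and 0.56 on the log2 scale. The ZTL relatives FKF1 and LKP2 were higher by log2 fold changes of 0.62 and 0.60, and were not called without decoy replicate 1 (0.51 and 0.38) or Col-0 replicate 2 (0.47 and 0.50), FKF1 also not without Col-0 replicate 1 (0.60). CHE, a repressor of CCA1, was higher by 0.66 on the log2 scale, and not called with library totals alone (0.39). The RNA-binding protein gene GRP7 had a log2 fold change of 0.53, called in the full set of libraries, but was not called without decoy replicate 1 (0.39) or 2 (0.55) or without Col-0 replicate 1 (0.51), 2 (0.61) or 3 (0.47). ELF3 and PRR3 were lower, with log2 fold changes of -0.51 and -0.63, and neither was called without decoy replicate 1 (-0.41 and -0.43) or 3 (-0.50 and -0.57) or without Col-0 replicate 1 (-0.49 and -0.55), 2 (-0.53 and -0.67) or 3 (-0.51 and -0.68). The count of higher genes was 3 without Col-0 replicate 2, and 2 with library totals alone. Of 29 clock gene windows, 8 held the evening element (27.6%), of which 2 genes were higher and 0 lower, and 9 held a G-box (31.0%), of which 0 were higher and 4 lower. Among the 21 without the evening element, 4 were higher and 8 lower. Among the 20 without a G-box, 6 were higher and 4 lower.

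Glucosinolates are sulphur compounds that crucifers store and break down on wounding, and the genes for the aliphatic kind, made from methionine, rose together. Of 26 tested, 18 were higher and 2 lower, or 69.2% and 7.69%, beside 19.6% and 21.2% of all genes, with a median of 0.89. Leaving out any 1 library or changing the scaling moved neither count by more than 1.5 times. Their summed level was 5102, 4711 and 5158 CPM in the decoy libraries, against 2206, 2295 and 2502 CPM in Col-0, with no overlap. At the chain elongation steps, the aminotransferase BCAT4 stood at 391, 378 and 418 CPM in the decoy libraries, against 96.9, 100.01 and 107 CPM in Col-0 (log2 fold change 1.97, SE 0.253, adjusted p 9.19e-05). MAM1, the condensing enzyme that sets chain length and is known to vary between accessions, stood at 478, 397 and 489 CPM in the decoy libraries, against 129, 143 and 182 CPM in Col-0 (log2 fold change 1.59, SE 0.275, adjusted p 0.000789). MAM3, its tandem neighbour, stood at 55.3, 60.7 and 91.5 CPM in the decoy libraries, against 78.8, 82.7 and 79.1 CPM in Col-0, overlapped Col-0 and was not called (-0.21).

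At the core steps, the cytochrome P450 genes CYP79F1 and CYP83A1 act in turn. CYP79F1 stood at 339, 313 and 368 CPM in the decoy libraries, against 102, 109 and 129 CPM in Col-0 (log2 fold change 1.59, SE 0.309, adjusted p 0.00167). CYP83A1 stood at 611, 480.3 and 577 CPM in the decoy libraries, against 200.1, 195 and 259 CPM in Col-0 (log2 fold change 1.35, SE 0.27, adjusted p 0.00197), so both rose with no overlap. The side-chain oxygenases moved in different directions. FMO_GS-OX1 stood at 76.9, 79.4 and 74.5 CPM in the decoy libraries, against 20.1, 21.0 and 23.8 CPM in Col-0 (log2 fold change 1.83, SE 0.274, adjusted p 0.000276), while FMO_GS-OX2 stood at 5.12, 5.46 and 4.82 CPM in the decoy libraries, against 18.3, 18.3 and 19.7 CPM in Col-0 (log2 fold change -1.87, SE 0.131, adjusted p 4.3e-07). Of the MYB activators of the aliphatic genes, MYB28 stood at 123, 169.6 and 106 CPM in the decoy libraries, against 130.4, 130.3 and 119.7 CPM in Col-0 and MYB29 at 14.2, 33.2 and 20.6 CPM in the decoy libraries, against 26.6, 31.6 and 23.3 CPM in Col-0, and neither was called (0.07 and -0.25). MYB76, the third of them, stood at 4.31, 6.26 and 5.203 CPM in the decoy libraries, against 1.75, 1.73 and 2.82 CPM in Col-0 (log2 fold change 1.33, SE 0.292, adjusted p 0.00344).

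Genes for indolic glucosinolates and camalexin, made from tryptophan, had 8 of 21 lower and 1 higher (median -0.51). CYP71A12, of indole-3-carbonyl nitrile and camalexin synthesis, stood at 11.6, 8.87 and 15.4 CPM in the decoy libraries, against 128, 95.9 and 182 CPM in Col-0 (log2 fold change -3.50, SE 0.361, adjusted p 1.46e-05). The MYB activators of the indolic genes, MYB34, MYB51 and MYB122, fell by 0.91, 0.98 and 1.94 on the log2 scale. The first enzymes CYP79B2, CYP79B3 and CYP83B1 had log2 fold changes of -0.24, -0.14 and -0.12, none called. The methyltransferase IGMT2 was the higher one, at 62.7, 38.9 and 57.6 CPM in the decoy libraries, against 5.28, 5.54 and 10.9 CPM in Col-0 (log2 fold change 2.88, SE 0.301, adjusted p 1.63e-05), while its close relative IGMT1 stood at 64.2, 32.4 and 30.1 CPM in the decoy libraries, against 64.7, 58.1 and 85.9 CPM in Col-0 and was not called.

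Of 18 genes of glucosinolate breakdown and transport, 2 were higher and 6 lower. The higher ones were ESP and NSP4, a nitrile-specifier protein, which stood at 294, 263 and 214 CPM in the decoy libraries, against 25.0, 29.0 and 26.9 CPM in Col-0 (log2 fold change 3.25, SE 0.208, adjusted p 2e-07). NSP3, a member of the same family, stood at 1.38, 1.33 and 1.53 CPM in the decoy libraries, against 9.82, 9.80 and 8.66 CPM in Col-0 (log2 fold change -2.73, SE 0.249, adjusted p 4.96e-06). NSP1 stood at 1119, 745 and 916 CPM in the decoy libraries, against 728, 694 and 876 CPM in Col-0, overlapped and was not called (0.27). ESM1, which turns breakdown away from nitriles and opposes ESP, stood at 227, 171 and 188 CPM in the decoy libraries, against 418, 413 and 514 CPM in Col-0 (log2 fold change -1.20, SE 0.211, adjusted p 0.000869). The nitrilase NIT2 stood at 11.7, 6.33 and 9.43 CPM in the decoy libraries, against 37.0, 27.9 and 43.0 CPM in Col-0 (log2 fold change -1.99, SE 0.21, adjusted p 1.76e-05). The myrosinases TGG1 and TGG2, which start breakdown, had log2 fold changes of 0.06 and -0.12, and the transporters GTR1 and GTR2 had -0.03 and -0.04, none called.

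**Figure D3:**
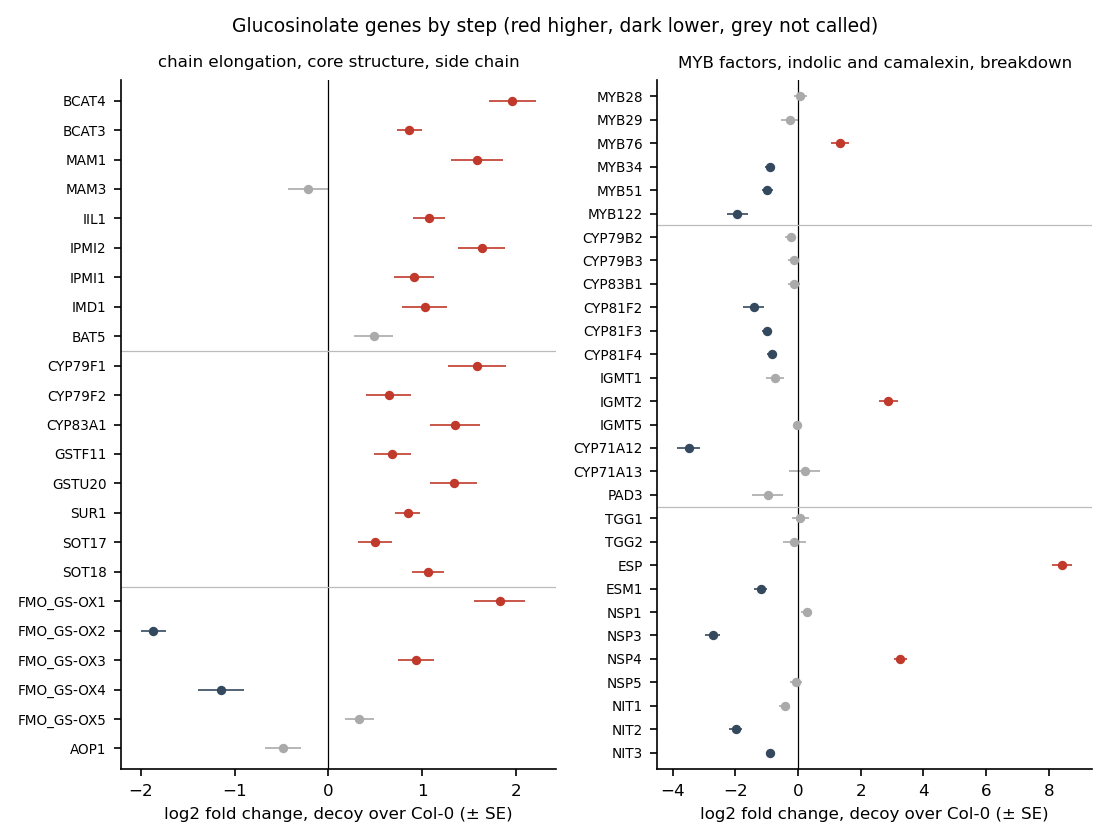
Log2 fold change of decoy over Col-0 with SE for glucosinolate genes by step; red members are called higher, dark ones lower and grey ones not called. Chain elongation and core genes lie at or above 0 apart from MAM3, indolic MYB factors lie below 0, and ESP stands at 8.42; the horizontal scales differ.

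Of 36 immune receptor genes tested, 15 were lower and 5 higher, beside 21.2% and 19.6% of all genes. SNC1, a receptor of the RPP5 cluster on chromosome 4, stood at 37.0, 52.8 and 41.9 CPM in the decoy libraries, against 172, 154 and 165 CPM in Col-0 (log2 fold change -1.90, SE 0.15, adjusted p 1.33e-06). RLM3, of resistance to blackleg, stood at 30.7, 67.4 and 51.2 CPM in the decoy libraries, against 269.8, 272 and 309 CPM in Col-0 (log2 fold change -2.51, SE 0.246, adjusted p 9.04e-06), and WRR4, of resistance to white rust, at 4.20, 5.77 and 12.1 CPM in the decoy libraries, against 47.0, 38.7 and 41.8 CPM in Col-0 (log2 fold change -2.51, SE 0.272, adjusted p 2.21e-05). RPP13, of resistance to downy mildew, stood at 12.8, 25.4 and 21.3 CPM in the decoy libraries, against 74.4, 74.0 and 78.3 CPM in Col-0 (log2 fold change -1.92, SE 0.197, adjusted p 1.39e-05). CSA1, a receptor gene next to CHS3, stood at 66.8, 76.9 and 72.6 CPM in the decoy libraries, against 28.6, 24.9 and 30.2 CPM in Col-0 (log2 fold change 1.37, SE 0.115, adjusted p 2.3e-06), while CHS3 fell by 1.21 on the log2 scale. ADR1-L3, a helper receptor, had 1179 decoy counts against 1 from Col-0, and the ratio was 1473 (95% interval 264 to 58241). The surface receptors FLS2 and EFR, which sense bacterial flagellin and elongation factor, had log2 fold changes of 0.61 and -0.30. FLS2 was called higher, but not without Col-0 replicate 2. The count of higher receptors was 3 without decoy replicate 1 or 3 or Col-0 replicate 1, 2 without Col-0 replicate 2 and 2 with library totals alone. Receptor families are rich in near-identical copies between which estimated counts can share reads.

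Of 59 WRKY factors, regulators of defence and senescence, 16 were lower and 3 higher (median -0.20). WRKY33, a regulator of camalexin genes, stood at 18.6, 23.9 and 31.3 CPM in the decoy libraries, against 54.7, 49.0 and 61.6 CPM in Col-0 (log2 fold change -1.16, SE 0.19, adjusted p 0.000541). WRKY29, a factor downstream of flagellin sensing, stood at 2.30, 2.95 and 4.02 CPM in the decoy libraries, against 14.9, 13.6 and 13.7 CPM in Col-0 (log2 fold change -2.17, SE 0.174, adjusted p 1.57e-06), and WRKY75, of phosphate and senescence responses, at 1.09, 2.70 and 1.77 CPM in the decoy libraries, against 6.37, 7.77 and 7.76 CPM in Col-0 (log2 fold change -1.93, SE 0.254, adjusted p 0.00011). WRKY17, a negative regulator of defence, was higher, at 48.2, 29.7 and 35.9 CPM in the decoy libraries, against 25.3, 26.04 and 22.3 CPM in Col-0 (log2 fold change 0.63, SE 0.149, adjusted p 0.00561). Without Col-0 replicate 3 the number of lower WRKY genes was 10, and with library totals alone it was 26. The number of higher ones was 5 without decoy replicate 1, and 1 without decoy replicate 3 or any 1 Col-0 library.

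SAUR genes, small auxin-induced genes of cell expansion, had 16 of 65 higher and 8 lower (10 and 16 with library totals alone). That is 24.6% and 12.3%, beside 19.6% and 21.2% of all genes. Log2 fold changes over the list ran from -7.88 to 2.84. SAUR23 stood at 9.84, 8.31 and 6.73 CPM in the decoy libraries, against 2.44, 1.97 and 2.13 CPM in Col-0 (log2 fold change 1.92, SE 0.238, adjusted p 6.79e-05), and SAUR20, in the same tandem group, at 12.8, 11.4 and 11.2 CPM in the decoy libraries, against 5.31, 5.87 and 5.01 CPM in Col-0 (log2 fold change 1.12, SE 0.249, adjusted p 0.00375). SAUR36, a gene of leaf senescence, stood at 3.51, 3.07 and 2.29 CPM in the decoy libraries, against 4.97, 6.13 and 6.87 CPM in Col-0 (log2 fold change -1.03, SE 0.232, adjusted p 0.0041). Members of the tandem group are close copies whose estimated counts can borrow from each other.

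Cytokinin genes had 5 of 22 higher and 8 lower, or 22.7% and 36.4%, beside 19.6% and 21.2% of all genes. Among the type-A response regulators, which damp cytokinin signalling, ARR15 stood at 6.67, 5.86 and 4.79 CPM in the decoy libraries, against 2.18, 3.46 and 2.34 CPM in Col-0 (log2 fold change 1.11, SE 0.213, adjusted p 0.00152) and ARR3 at 2.99, 2.51 and 2.39 CPM in the decoy libraries, against 5.74, 7.04 and 4.74 CPM in Col-0 (log2 fold change -1.16, SE 0.198, adjusted p 0.00069), so members of 1 class moved in opposite directions. The lower count was 3 and 5 without decoy replicates 1 and 3, and 2, 2 and 5 without Col-0 replicates 1, 2 and 3. The higher count was 3 without decoy replicate 3 and 1 with library totals alone. The receptor gene HK3 had a log2 fold change of 0.02, not called, and reversed and passed the test with library totals alone (-0.24). Ethylene genes had 5 of 19 higher and 2 lower, or 26.3% and 10.5%, beside the same shares of all genes. ACS8, a synthase of the ethylene precursor, stood at 2.70, 3.29 and 2.25 CPM in the decoy libraries, against 0.431, 0.323 and 0.790 CPM in Col-0 (log2 fold change 2.43, SE 0.459, adjusted p 0.00139), and ACO1, an oxidase of the last step, at 3.11, 2.76 and 2.25 CPM in the decoy libraries, against 4.94, 5.66 and 5.39 CPM in Col-0 (log2 fold change -0.99, SE 0.216, adjusted p 0.00352). The higher count was 2 without decoy replicate 1, 3 and 1 without Col-0 replicates 1 and 2, and 1 with library totals alone, where 5 were lower. The lower count was 1 without Col-0 replicate 3.

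Of 39 subunits of the 26S proteasome, which breaks down ubiquitin-marked proteins, 21 were higher and 2 lower (median 0.30). Their shares, 53.8% and 5.13%, stand beside 19.6% and 21.2% of all genes. RPN1A, a base subunit of the regulatory particle that binds ubiquitin receptors, stood at 211, 121 and 187 CPM in the decoy libraries, against 82.6, 85.4 and 98.2 CPM in Col-0 (log2 fold change 0.96, SE 0.209, adjusted p 0.00336), and RPT4A, an ATPase of the base, at 62.1, 55.4 and 64.1 CPM in the decoy libraries, against 39.1, 37.7 and 43.2 CPM in Col-0 (log2 fold change 0.60, SE 0.109, adjusted p 0.00113). PAA2, a core subunit, stood at 54.1, 53.5 and 51.2 CPM in the decoy libraries, against 87.4, 78.9 and 86.6 CPM in Col-0 (log2 fold change -0.67, SE 0.0873, adjusted p 9.91e-05). The other lower subunit gene, RPN5B (log2 fold change -0.62), was not called without Col-0 replicate 2 (-0.59). With library totals alone 4 subunits were higher and 3 lower. Of 114 cytosolic ribosomal protein genes, 26 were higher and 3 lower (median 0.16), a share of higher genes near that of all genes. The count of higher ones was 16 without decoy replicate 1, 11 without Col-0 replicate 1 or 3, 40 by DESeq2, and 3 with library totals alone, where 9 were lower. The lower count was 6 without decoy replicate 2.

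**Figure D4:**
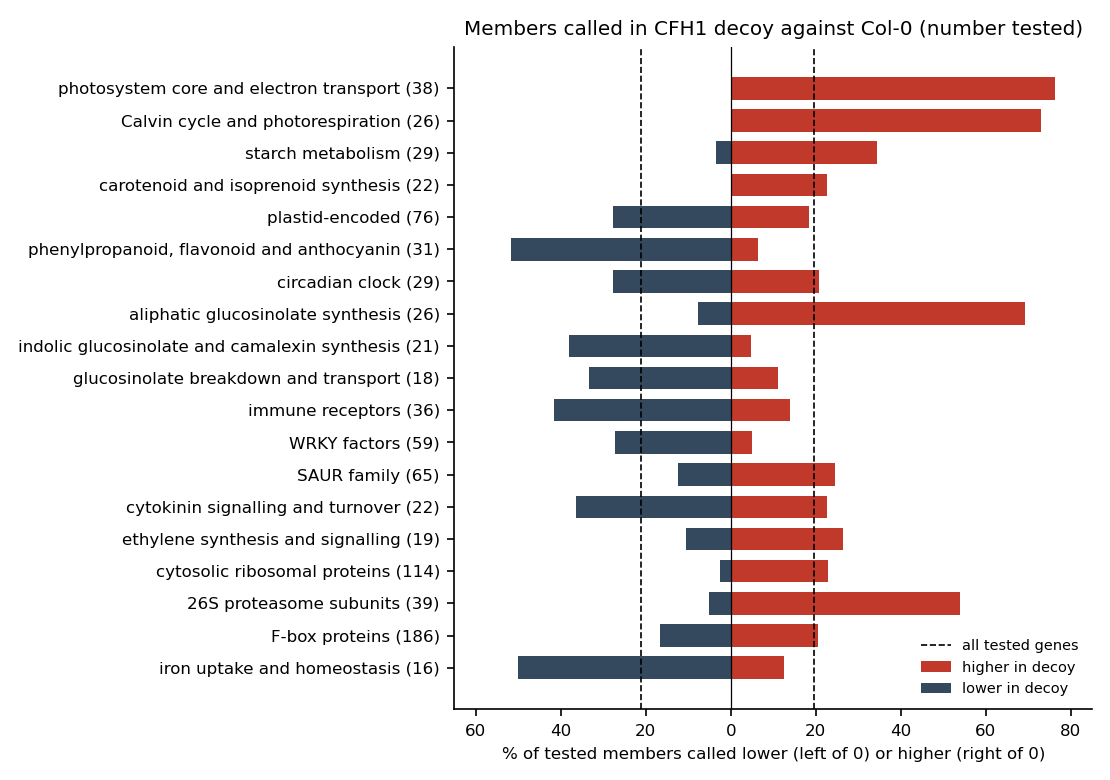
Share of tested members called higher (red, right of 0) or lower (dark, left of 0) in the decoy for 19 gene lists, with the number tested in brackets and the shares over all tested genes, 19.6% and 21.2%, as dashed lines. Photosystem, Calvin cycle, aliphatic glucosinolate and proteasome lists reach furthest past the line on the right, and flavonoid and iron lists furthest past the line on the left.

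Iron genes moved in both directions, regulators of uptake down and a storage gene up. Of 16 tested, 8 were lower and 2 higher, or 50% and 12.5%, beside 21.2% and 19.6% of all genes (median -0.82). Leaving out any 1 library left 7 or more lower. The bHLH factors of iron deficiency, which switch on uptake genes, all fell. BHLH038 stood at 11.7, 1.61 and 13.5 CPM in the decoy libraries, against 47.0, 63.0 and 76.2 CPM in Col-0 (log2 fold change -2.82, SE 0.506, adjusted p 0.000993), and BHLH101 at 4.43, 1.21 and 3.36 CPM in the decoy libraries, against 12.4, 15.7 and 18.7 CPM in Col-0 (log2 fold change -2.43, SE 0.339, adjusted p 0.000168). BHLH039 and BHLH100 fell by 2.37 and 2.26 on the log2 scale. PYE, a further regulator of iron deficiency, stood at 14.6, 10.6 and 10.6 CPM in the decoy libraries, against 22.1, 24.8 and 34.5 CPM in Col-0 (log2 fold change -1.19, SE 0.186, adjusted p 0.000378). FER1, the ferritin that stores iron in plastids, stood at 168, 737 and 428 CPM in the decoy libraries, against 106, 90.8 and 55.7 CPM in Col-0 (log2 fold change 2.40, SE 0.442, adjusted p 0.00116). NAS1, of nicotianamine synthesis, rose by 0.83 on the log2 scale.

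The root uptake genes themselves were not called. The transporter IRT1 stood at 179.9, 58.0 and 292 CPM in the decoy libraries, against 283, 231 and 204 CPM in Col-0 and was not called (-0.44), and the reductase FRO2 stood at 94.8, 20.3 and 166 CPM in the decoy libraries, against 93.7, 72.3 and 84.1 CPM in Col-0 and was not called (0.17). Decoy replicate 2 was the lowest of the 6 libraries for both genes and for the 4 bHLH genes, and the highest for FER1. Root hair markers stood low in the same library: PRP3 stood at 84.7, 12.3 and 95.1 CPM in the decoy libraries, against 65.4, 55.7 and 74.1 CPM in Col-0 and LRX1 at 48.2, 7.57 and 46.4 CPM in the decoy libraries, against 27.8, 29.2 and 28.3 CPM in Col-0. The 14 root hair and endodermis markers summed to 517, 265 and 460.4 CPM in the decoy libraries, against 375, 349.9 and 365 CPM in Col-0. Of these, 2 were higher and 3 lower, with 1 to 3 higher and 2 to 4 lower when single libraries were left out, and none was at 0. The shares of these markers called higher and lower were 14.3% and 21.4%, beside 19.6% and 21.2% of all genes. The part of root cell content in the iron values was not tested. Without decoy replicate 2 the list had 7 lower and 2 higher genes.

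**Figure D5:**
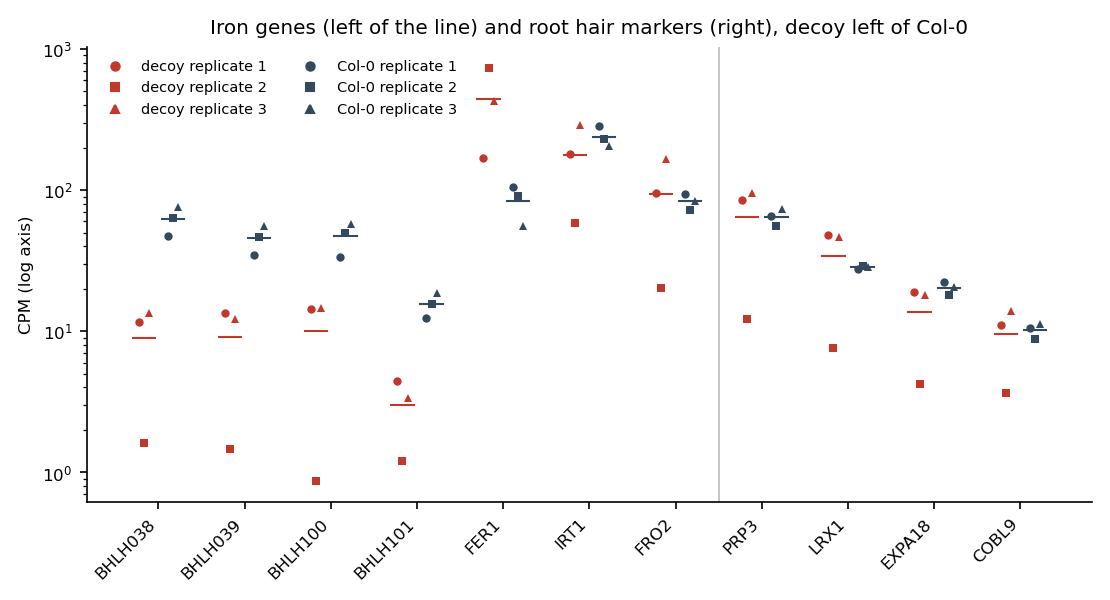
Level of 7 iron genes and 4 root hair marker genes in each library (CPM, log axis), decoy in red left of Col-0 in dark blue, with 1 mark per replicate and a line at the mean of 3. The 4 bHLH genes lie lower and FER1 higher in every decoy library than in any Col-0 library, and decoy replicate 2 (squares) lies lowest in the bHLH, IRT1, FRO2 and root hair genes.

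Markers of other cell types give a measure of the tissue sampled. Of 16 stomatal and guard cell markers, 5 were lower and 2 higher, or 31.25% and 12.5%, beside 21.2% and 19.6% of all genes. The stomatal and guard cell markers summed to 85.2, 117 and 109 CPM in the decoy libraries, against 149, 159.7 and 149 CPM in Col-0. The guard cell potassium channel KAT2 stood at 2.53, 6.95 and 4.27 CPM in the decoy libraries, against 17.02, 18.4 and 19.0 CPM in Col-0 (log2 fold change -1.95, SE 0.249, adjusted p 8.7e-05), while the stomatal lineage factor SPCH had a log2 fold change of -0.59 and was not called. The lower count was 3 without decoy replicate 1 or Col-0 replicate 1 or 2, and the higher count was 0 or 1 without any 1 library other than decoy replicate 1. Of 17 phloem and xylem markers, 7 were higher and 3 lower, or 41.2% and 17.6%, beside 19.6% and 21.2% of all genes. The count of higher vascular markers was 4 without decoy replicate 1, without Col-0 replicate 1 or 2 or with library totals alone. The sucrose carrier SUC2 stood at 162, 109 and 115 CPM in the decoy libraries, against 86.8, 69.9 and 89.8 CPM in Col-0 (log2 fold change 0.65, SE 0.16, adjusted p 0.00684), and the xylem laccase LAC4 at 29.8, 13.4 and 25.9 CPM in the decoy libraries, against 10.9, 9.80 and 10.4 CPM in Col-0 (log2 fold change 1.14, SE 0.253, adjusted p 0.0037). Of 17 meristem, flower and seed markers 6 passed the filter and 1 was higher (0 to 2 when single libraries were left out), and they summed to 37.0, 38.3 and 26.3 CPM in the decoy libraries, against 20.2, 23.8 and 24.7 CPM in Col-0. Their part in the values of the other lists was not tested.

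The decoy libraries were also set against the 2 other lines, with the same 3 decoy libraries in each comparison and edgeR's quasi-likelihood test. Of the genes tested, 3191 (15%) were higher and 3864 (18.2%) lower in decoy seedlings than in the cfh1 mutant, and 4363 (20.5%) were higher and 4827 (22.7%) lower than in PIF3 over-expression. With a log2 fold change of at least 1 as well, 3.4% were higher and 8.63% lower than in the mutant, and 6.11% higher and 10.7% lower than in PIF3 over-expression. ESP, at 2583 to 4933 CPM in the decoy libraries, stood at 14.0, 17.02 and 10.005 CPM in the cfh1 mutant and 13.6, 14.8 and 11.4 CPM in PIF3 over-expression. The photosystem I gene PSAG had log2 fold changes of 0.97 over the cfh1 mutant (adjusted p 0.00233) and 1.71 over PIF3 over-expression (adjusted p 2.76e-05). It ranged from 2705 to 4276 CPM in the decoy libraries, against 1807, 1806 and 1702 CPM in the cfh1 mutant and 810.4, 1209.5 and 1152 CPM in PIF3 over-expression, so the decoy libraries lay above all others. The chain elongation gene BCAT4 stood at 391, 378 and 418 CPM in the decoy libraries, against 61.5, 112 and 49.8 CPM in the cfh1 mutant and 42.5, 62.9 and 66.6 CPM in PIF3 over-expression, with log2 fold changes of 2.41 over the cfh1 mutant (adjusted p 2.26e-05) and 2.79 over PIF3 over-expression (adjusted p 5.88e-06).

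LDOX stood at 1.15, 1.43 and 1.66 CPM in the decoy libraries, against 9.72, 15.0 and 6.74 CPM in the cfh1 mutant and 148, 50.6 and 26.3 CPM in PIF3 over-expression, with log2 fold changes of -2.86 over the cfh1 mutant (adjusted p 0.00343) and -5.70 over PIF3 over-expression (adjusted p 2.03e-05). The PIF3 over-expression libraries thus lay above those of the decoy and of the cfh1 mutant for this late anthocyanin gene, with a wide spread among themselves. BHLH038 stood at 11.7, 1.61 and 13.5 CPM in the decoy libraries, against 62.1, 63.6 and 43.7 CPM in the cfh1 mutant and 146, 158 and 218 CPM in PIF3 over-expression, with log2 fold changes of -2.68 over the cfh1 mutant (adjusted p 0.00166) and -4.31 over PIF3 over-expression (adjusted p 5.07e-05). LHY stood at 127, 173 and 193 CPM in the decoy libraries, against 270.2, 264 and 197 CPM in the cfh1 mutant and 162, 232 and 201 CPM in PIF3 over-expression, with log2 fold changes of -0.57 over the cfh1 mutant (adjusted p 0.0268) and -0.27 over PIF3 over-expression (adjusted p 0.235), and the decoy libraries of this clock gene overlapped those of PIF3 over-expression. All decoy libraries lay on 1 side of all 9 others for 29 of 38 photosystem genes, 21 of 26 aliphatic glucosinolate genes, 10 of 16 iron genes and 14 of 31 flavonoid genes, beside 28.4% of all genes. For Calvin cycle genes this held for 8 of 26, near the share of all genes.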

How the data were processed

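Values are estimated counts as the authors deposited them, for 27588 genes in 12 libraries of whole-seedling mRNA, of which 41.6% of values were not whole numbers. Per the submitters' processing notes the build was TAIR10 and the tools included StringTie 2.1.2, HISAT2 2.1.0 and Trimmomatic 0.39; strand handling is not given in the sources used here. Reads of near-identical genes (RBCS, LHB, PP2-A, PDF1.2, SAUR19 to SAUR24, CYP71A12, IGMT2, NSP3 and NSP4, BHLH038 and BHLH039) can be shared between copies. Counts were rounded and analysed in R 4.3.3 with edgeR 4.0.16: filterByExpr with a minimum count of 10, TMM scaling, and a quasi-likelihood fit of 1 mean per genotype over 12 libraries, with 2-sided tests and Benjamini-Hochberg adjustment over 21235 genes at 0.05. The fit was also run on simulated data in which few genes changed, as many up as down. That setting is unlike these data, so the run adds no support. Locus codes were given names and products from RefSeq TAIR10.1, in which 27390 codes had an entry, and its annotation supplied the promoter windows.

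The 25 gene lists were chosen with earlier results of these data known. Named genes are the 10 largest rises and falls by fold among nuclear genes that carry a symbol, average at least 1 in log2 CPM and show no overlap, the 8 largest gains and losses in CPM, up to 3 called members of each list per direction and its most abundant member, AT2G32560, PIF3, and the accession, regulator and clock lists. Other list members were added as examples after their values were seen, and some genes under the rule are given by list count alone or are not reported here. Alternatives were size factors by the RLE method, library totals alone, DESeq2 1.42.0, other filters, the 2 lines alone, a replicate block and leaving out each library. Intervals and bounds cover counting error only.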

Additional observations from a re-analysis of the deposited data

How the results depend on the processing

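The total counts of higher and lower genes stayed within 1.5 times of the reported ones under every alternative except library totals alone, which gave 1720 higher, 6929 lower and 531 higher by a log2 fold change of at least 1. Leaving out each library in turn gave 2830 to 4431 higher and 3453 to 4987 lower genes, 742 to 986 higher and 1809 to 2520 lower past a log2 fold change of 1. Of 164 named genes that were called, 119 were called under every alternative and 121 under every one but library totals. Among all named genes, called or not, HK3 was the only one to reverse, at -0.24 with library totals alone. List members that are not named genes under the rule were not checked for reversal. Of the list counts recomputed, 528 stayed within 1.5 times of the reported count and 122 moved further, many of which stand beside the lists. Deviations from the line means correlated at 0.00934, 0.271 and 0.0770 between same-numbered libraries of the decoy and Col-0. Between libraries with different numbers the correlations ran from -0.221 to 0.134. With so few libraries these values cannot show whether the replicate numbers pair the samples. With the replicate block, 3703 genes were higher and 4292 lower. Depth limits genes with few counts, and decoy replicate 1 had the lowest total. The cause of these shifts was not tested.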
